A study of Mus musculus with 3 samples.

Results

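The genes described here encode splicing factors and heterogeneous nuclear ribonucleoproteins (hnRNPs). They were taken by name, as all protein-coding genes of GENCODE M21 whose symbol begins with Srsf, Srrm, Sf3a, Sf3b, Prpf or Hnrnp, which gave 57 of 21951 protein-coding genes. Their predicted m6A sites were read from a list for RAW264.7, a mouse macrophage cell line. The cells were untreated and 3 biological replicates were profiled, each from 1 µg of poly(A)+ RNA and preamplified for 6 cycles. The miCLIP2 protocol crosslinks an m6A antibody to RNA with UV light and reads the crosslinked base from where reverse transcription stops. The m6Aboost model then gave each peak at an adenosine a prediction score, and the list holds sites with scores above 0.5; a score is the model's output and not a methylation level. The replicates share 1 list without read counts, so neither the depth of a site nor its variation between replicates is known. The design text of the series calls the line human, but the organism label is mouse and all 19301 listed positions were adenosines of the mouse genome GRCm38.

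Pre-mRNA splicing is carried out by the spliceosome, which assembles from small nuclear ribonucleoproteins (snRNPs) and many further proteins. SR proteins bind exons through RNA recognition motifs and recruit this machinery through domains rich in arginine and serine, whereas hnRNPs coat nascent transcripts and often repress the use of nearby splice sites. The abundance of many of these proteins is set by alternative splicing of their own transcripts, and in macrophages alternative splicing changes with the response to bacterial products.

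Among the 11 macrophage markers reported, 7 carried sites, beside 5080 of 21951 protein-coding genes (23.1%). There were 13 sites in Cd14, 11 in Csf1r, 7 in Cebpa, 6 each in Spi1, Fcgr1 and Cebpb, and 2 in Lyz2. Adgre1, Itgam, Cd68 and Mertk had 0 sites. A site needs both a transcript and a call, so these counts show transcripts of the 7 markers with sites in the RNA but give no expression levels. A gene without a site cannot be read as silent or unmethylated.

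Of the 57 genes, 32 had at least 1 site (56.1%, 95% Wilson interval 43.3 to 68.2%), beside 5080 of all protein-coding genes (23.1%). Together they held 108 sites, or 0.560% of the list, and none of these lay in a further annotated gene on the same strand. The list holds no expression values, so these shares take no account of expression, and the difference was not tested. The median was 3 sites per gene with a site, both in this group and over all protein-coding genes. Srrm2 alone reached 10 sites or more, which is 3.13% of the members with a site beside 7.38% (375 of 5080) of all protein-coding genes with a site. The 12 members with most sites carried 70 of the 108 (64.8%), and 8 members had a single site.

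**Figure D1:**
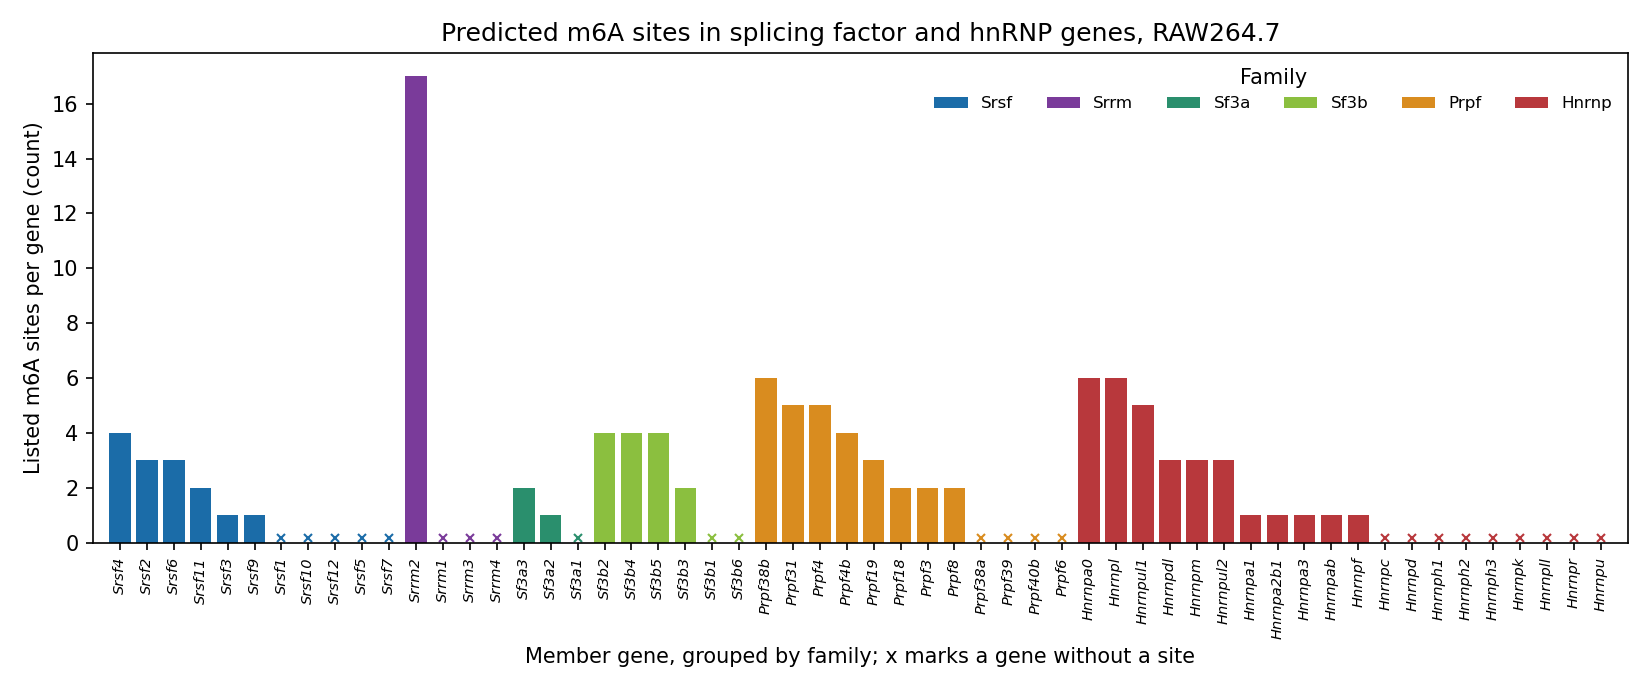
Number of listed m6A sites (y axis) in the member genes (x axis; 1 of the 57 is not drawn), coloured by gene family; a cross marks a gene without a site. Srrm2 stands out with 17 sites, and no other member has more than 6.

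The sites of these genes lay more often in the coding sequence and less often in the 3′ UTR than sites at large. On the transcript with the longest coding sequence (CDS) of each gene, 71 of 108 member sites were in the CDS (65.7%, 56.4 to 74.0%) against 49.8% over all protein-coding genes, and 30 were in the 3′ UTR (27.8%, 20.2 to 36.9%) against 42.1%. Srsf2 had the only site in the 5′ UTR of a chosen transcript. Hnrnpl had the 3 sites in introns, and Hnrnpdl had the 3 sites beyond the ends of its chosen transcript. Both differences were smaller without Srrm2, at 59.3% (49.1 to 68.9%) for the CDS and 33.0% (24.2 to 43.1%) for the 3′ UTR, intervals that include the values over all genes. At scores of at least 0.7 the 3′ UTR share of member sites rose to 41.7% (30.1 to 54.3%), and that over all protein-coding genes to 50.5%. All intervals cover counting error only, since sites are not replicates, and none of these differences was tested.

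Fewer member sites were in the last exon, 48 of 102 exonic sites (47.1%, 37.7 to 56.7%) beside 68.7% over all protein-coding genes. Without Srrm2 the difference was smaller, at 56.5% (45.9 to 66.5%). More of them were close to a splice junction: 27 of 92 sites on transcripts with introns lay within 100 nt of an exon junction (29.3%, 21.02 to 39.3%), beside 12.7% over all genes. This share was higher without Srrm2 (34.7%, 24.9 to 45.9%). Even so, sites were rarer near junctions than the motif itself. Of the adenosines in DRACH motifs on the same transcripts, the consensus for m6A, 48.5% (950 of 1960) lay within 100 nt of a junction, against 28.0% of the listed DRACH sites (23 of 82). Around the stop codon the order was the other way round, with 12.1% of DRACH adenosines but 31.1% of listed DRACH sites within 200 nt. Over all exonic member sites the share within 200 nt of the stop codon was 30.4% (22.3 to 39.9%), close to the 32.3% over all protein-coding genes, and without Srrm2 it was 36.5% (27.0 to 47.1%). In the last exon these DRACH shares were closer to each other, with 44.8% of DRACH adenosines and 47.8% of listed DRACH sites.

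**Figure D2:**
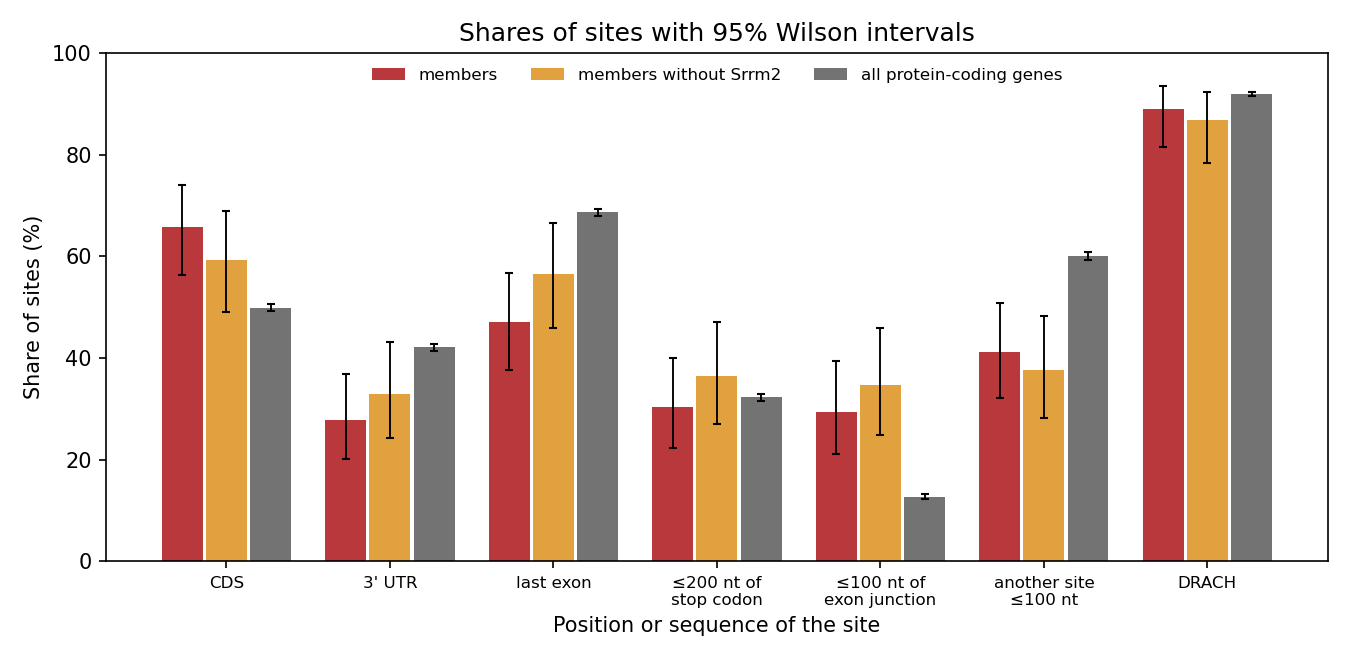
Share of sites (y axis, percent) in each class of position or sequence (x axis) for the member genes, the members without Srrm2 and all protein-coding genes; error bars are 95% Wilson intervals, which cover counting error only. The interval of the members lies apart from that of all protein-coding genes for the CDS, the 3′ UTR, the last exon, exon junctions and neighbouring sites, but not for the stop codon or DRACH.

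Member sites had nearly the same median score as sites over all protein-coding genes, 0.735 beside 0.734. Scores below 0.6 were given to 29 of 108 member sites (26.9%, 19.4 to 35.9%), beside 19.6% over all protein-coding genes. Scores of 0.9 or more were given to 5 of 108 sites (4.63%), with an interval of 1.99 to 10.4% that includes the 8.88% over all genes. These 5 sites were in Prpf31, Prpf18, Sf3b5 (2 sites) and Sf3a3, and all of them were in the 3′ UTR within 200 nt of the stop codon. Over all protein-coding genes at this score, 68.7% of sites were in the 3′ UTR, 22.4% in the CDS and 41.0% within 200 nt of the stop codon, so the lower 3′ UTR share of member sites was not seen among these 5. By family, the median ran from 0.630 for hnRNP genes to 0.775 for Prpf genes.

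Of the 11 Srsf genes, which encode SR proteins and close relatives, 6 had sites, 14 in all, and 11 of these were in last exons. Srsf4, an SR protein with a long arginine and serine rich domain, had most, with 4 sites in exon 6 of 6. Its sites at chr4:131900654 (score 0.615) and chr4:131900835 (0.583) were in the CDS, and those at chr4:131901289 (0.638) and chr4:131901491 (0.774) were in the 3′ UTR. They take up 4 of the 31 DRACH adenosines of this transcript (12.9%), the highest share of any member. Srsf2, which binds exonic enhancers, carried a site in its 5′ UTR at chr11:116853018 (0.814) and a pair 22 nt apart in the 3′ UTR, 37 and 59 nt after the start of the stop codon. Srsf6 had 3 sites, of which 2 were outside DRACH, and the remaining one scored 0.824 in the 3′ UTR 38 nt after the start of the stop codon. Srsf11, an SR-related factor, had sites at chr3:158012013 (0.899), 2 nt before the stop codon, and at chr3:158011769 (0.645) in the 3′ UTR. Srsf3, the smallest SR protein, had its single site at chr17:29038520 in the CDS of exon 3, and Srsf9 had its single site at chr5:115332977 in the 3′ UTR. No site was listed for Srsf1, Srsf5, Srsf7, Srsf10 or Srsf12.

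Among the SR-related matrix proteins, Srrm2 is a large scaffold protein of nuclear speckles, the compartments in which splicing factors are stored. It carried 17 sites and ranked 54th of 5080 protein-coding genes with a site. All 17 were at DRACH motifs in the CDS, 16 of them in exon 11 of 15, which is 6569 nt long; the remaining one was in exon 2. The scores ran from 0.511 to 0.860, and none of the sites was within 200 nt of the stop codon. They formed groups, with 4 sites between chr17:23818188 and chr17:23818320 and 4 more between chr17:23820673 and chr17:23820799. Srrm1, a splicing coactivator of the nuclear matrix, Srrm3 and the neuronal microexon regulator Srrm4 had no site. Srrm4 has 139 DRACH adenosines and Srrm1 an internal exon of 462 nt, but the list does not tell whether their transcripts were present.

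The last group of Srrm2 sites had an even spacing of 42 nt, a whole number of codons, so that each of the 4 adenosines was the middle base of an AAC codon. Their scores were 0.805, 0.679, 0.858 and 0.782 in order along the transcript. The surrounding sequence is a set of diverged tandem copies, shown here because listed and unlisted copies can be compared. In the genomic windows of 21 nt below (GRCm38, plus strand of chromosome 17, the site in the centre), capitals mark the 5 bases centred on the adenosine. This stretch was chosen after its values were seen. The first and the last line are DRACH adenosines beside the listed run that are not in the list, 42 nt before its start and 39 nt after its end.
Srrm2 chr17:23820631, not listed: ccagctgcTAACCttgccagc
Srrm2 chr17:23820673, listed: gcagctatGAACCttgctagt
Srrm2 chr17:23820715, listed: gcatctgtGAACCttgctgac
Srrm2 chr17:23820757, listed: gcagctatGAACTtagccagc
Srrm2 chr17:23820799, listed: tcagctgtGAACCttgcagat
Srrm2 chr17:23820838, not listed: tcagctgtGAACCtagcagga
The window of the first listed site shared 16, 17 and 16 of 21 bases at the same place with those of the following 3 listed sites, and 15 with each unlisted copy. The unlisted copy at chr17:23820838 has the same 5 bases GAACC as 3 of the listed sites. Of 11 DRACH adenosines in the stretch, 4 were listed, and the other 7 include motifs between the copies. A position that is not listed may have had no peak or a score below the limit, and the list does not say which.

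The SF3a and SF3b subunits form part of the U2 snRNP, which recognises the branch point. In the SF3a complex Sf3a2 and Sf3a3 had 1 and 2 sites and Sf3a1 had none. The site of Sf3a2 was at chr10:80801237 in the CDS of exon 2. The site of Sf3a3 with the higher score was at chr4:124732321 (AGACT, 0.902), 58 nt after the start of the stop codon. In the SF3b complex Sf3b2, Sf3b4 and Sf3b5 had 4 sites each and Sf3b3 had 2, whereas Sf3b1, the subunit that holds the branch site helix, and Sf3b6, which lies close to the branch adenosine, had none. Sf3b1 contains 137 DRACH adenosines.

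The SF3b genes differed in where their sites were. Sf3b5, a small subunit encoded by a single exon, had all 4 sites around its stop codon: 17 and 2 nt before it at chr10:13008864 (0.723) and chr10:13008879 (0.837), and 132 and 156 nt after its start at chr10:13009013 (0.935) and chr10:13009037 (0.912). Sf3b4, the RNA-binding subunit, had all 4 sites in the CDS of exon 3, an internal exon of 543 nt, at chr3:96173700 (0.784), chr3:96173732 (0.603), chr3:96173781 (0.579) and chr3:96173956 (0.869). Sf3b2 had 4 CDS sites in short exons of 97, 92 and 81 nt, at chr19:5287921 (0.572), chr19:5287570 (0.650), chr19:5286597 (0.511) and chr19:5286586 (0.661). None of the Sf3b2 sites was more than 36 nt from an exon border. Sf3b3 had a CDS site in exon 3 (0.547) and a 3′ UTR site 101 nt after the start of the stop codon (0.791).

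The Prpf genes encode factors of the U4/U6.U5 tri-snRNP, the U1 snRNP and the Prp19 complex. Of 13 genes, 8 had sites, 29 in all, and 28 of these were at DRACH motifs. Prpf38b, a relative of the tri-snRNP associated factor Prpf38a, had 6 sites in the CDS of its last exon. They were at chr3:108904663 (0.543), chr3:108904415 (0.780), chr3:108904403 (0.858), chr3:108904122 (0.733), chr3:108904010 (0.874) and chr3:108903927 (0.665), the last of them 6 nt before the stop codon. Prpf4, a component of the U4/U6 snRNP, showed the opposite arrangement with 5 sites in the 3′ UTR and none in the CDS. They lay from 26 to 771 nt after the start of the stop codon, at chr4:62423435 (0.752), chr4:62423624 (0.838), chr4:62423642 (0.873), chr4:62423929 (0.863) and chr4:62424180 (0.853).

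Prpf31, a U4/U6 snRNP protein whose mutation causes retinal degeneration, held the member site with the highest score. This was a GGACT at chr7:3640968 (0.988), 48 nt after the start of the stop codon. It belonged to a group of 4 sites over 123 nt of the 3′ UTR, with chr7:3640959 (0.865), chr7:3640986 (0.690) and chr7:3641082 (0.814); a further site at chr7:3638885 (0.540) was in the CDS of exon 11. Prpf18, a factor of the exon ligation step, had 2 sites in its 3′ UTR with scores of 0.866 and 0.983. Prpf4b, a kinase that phosphorylates tri-snRNP proteins, had 3 sites in exon 2, an exon of 1197 nt, at chr13:34883484 (0.741), chr13:34883782 (0.800) and chr13:34884342 (0.775). Its site at chr13:34901505 (0.572) was in the last exon, 89 nt before the stop codon.

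The remaining Prpf genes had few sites. Prpf19, the ubiquitin ligase of the complex that bears its name, had 3 sites, of which the CDS sites scored 0.597 and 0.571 and the 3′ UTR site 0.702. Prpf3 had a CDS site in exon 2 (0.721) and a 3′ UTR site (0.817). Prpf8, the protein at the catalytic centre of the spliceosome, had 2 CDS sites (0.585 and 0.739) among 170 DRACH adenosines on 42 exons. No site was listed for Prpf6, Prpf38a, Prpf39 or Prpf40b, of which Prpf40b acts with the U1 snRNP.

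Of 20 hnRNP genes, 11 had sites, 31 in all. Hnrnpa0, which binds AU-rich elements of cytokine mRNAs, and Hnrnpl, which binds CA repeats, had 6 sites each. Hnrnpa0 consists of a single exon and carried 2.24 exonic sites per kb of its chosen transcript. This was the highest density of any member when only exonic sites of the chosen transcript are counted. Its sites at chr13:58128220 (GGACG, 0.776), chr13:58128214 (TGACG, 0.523) and chr13:58128210 (GGACT, 0.813) fell within 10 nt of the CDS. A further CDS site was at chr13:58127444 (0.737), 46 nt before the stop codon, and the sites at chr13:58127256 (0.764) and chr13:58127036 (0.774) were in the 3′ UTR.

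The 6 sites of Hnrnpl divided between exons and intron 6 of 11. Exonic sites were at chr7:28810978 (0.543) and chr7:28818875 (0.784) in the CDS, with a 3′ UTR site at chr7:28822098 (0.786). The intronic sites were at chr7:28815464 (0.596), chr7:28815959 (0.624) and chr7:28816082 (0.566). All 3 lay in the final exon of the annotated retained-intron transcripts Hnrnpl-206 and Hnrnpl-212, so that no member site was intronic in every annotated transcript. Hnrnpdl, a relative of the AU-rich element binding protein Hnrnpd, gave a similar picture. Its 3 sites at chr5:100039324 (0.654), chr5:100039305 (0.592) and chr5:100039256 (0.607) were all GGACT and lay upstream of the chosen transcript. They were in the 5′ UTR, in exon 1, of Hnrnpdl-201, an isoform annotated as a target of nonsense-mediated decay. The list does not tell from which isoform, or from spliced or unspliced RNA, the sites of Hnrnpl and Hnrnpdl were read.

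Hnrnpul1, an hnRNP U-like protein, had 5 sites. The CDS held those at chr7:25754574 (0.622), chr7:25754440 (0.630) and chr7:25726812 (0.583), and the 3′ UTR those at chr7:25722154 (0.628) and chr7:25721496 (0.773). Its relative Hnrnpul2 had 3 sites, all in the CDS of exon 1. Hnrnpm had 3 sites in exon 14, an internal exon of 803 nt, with scores of 0.846, 0.553 and 0.746. The 5 hnRNP genes with a single site had it in the CDS: Hnrnpa1 at chr15:103243757, Hnrnpa2b1 at chr6:51467192, Hnrnpa3 at chr2:75665098, Hnrnpab at chr11:51606419 and Hnrnpf at chr6:117924830. No site was listed for Hnrnpc, Hnrnpd, Hnrnph1, Hnrnph2, Hnrnph3, Hnrnpk, Hnrnpll, Hnrnpr or Hnrnpu.

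**Figure D3:**
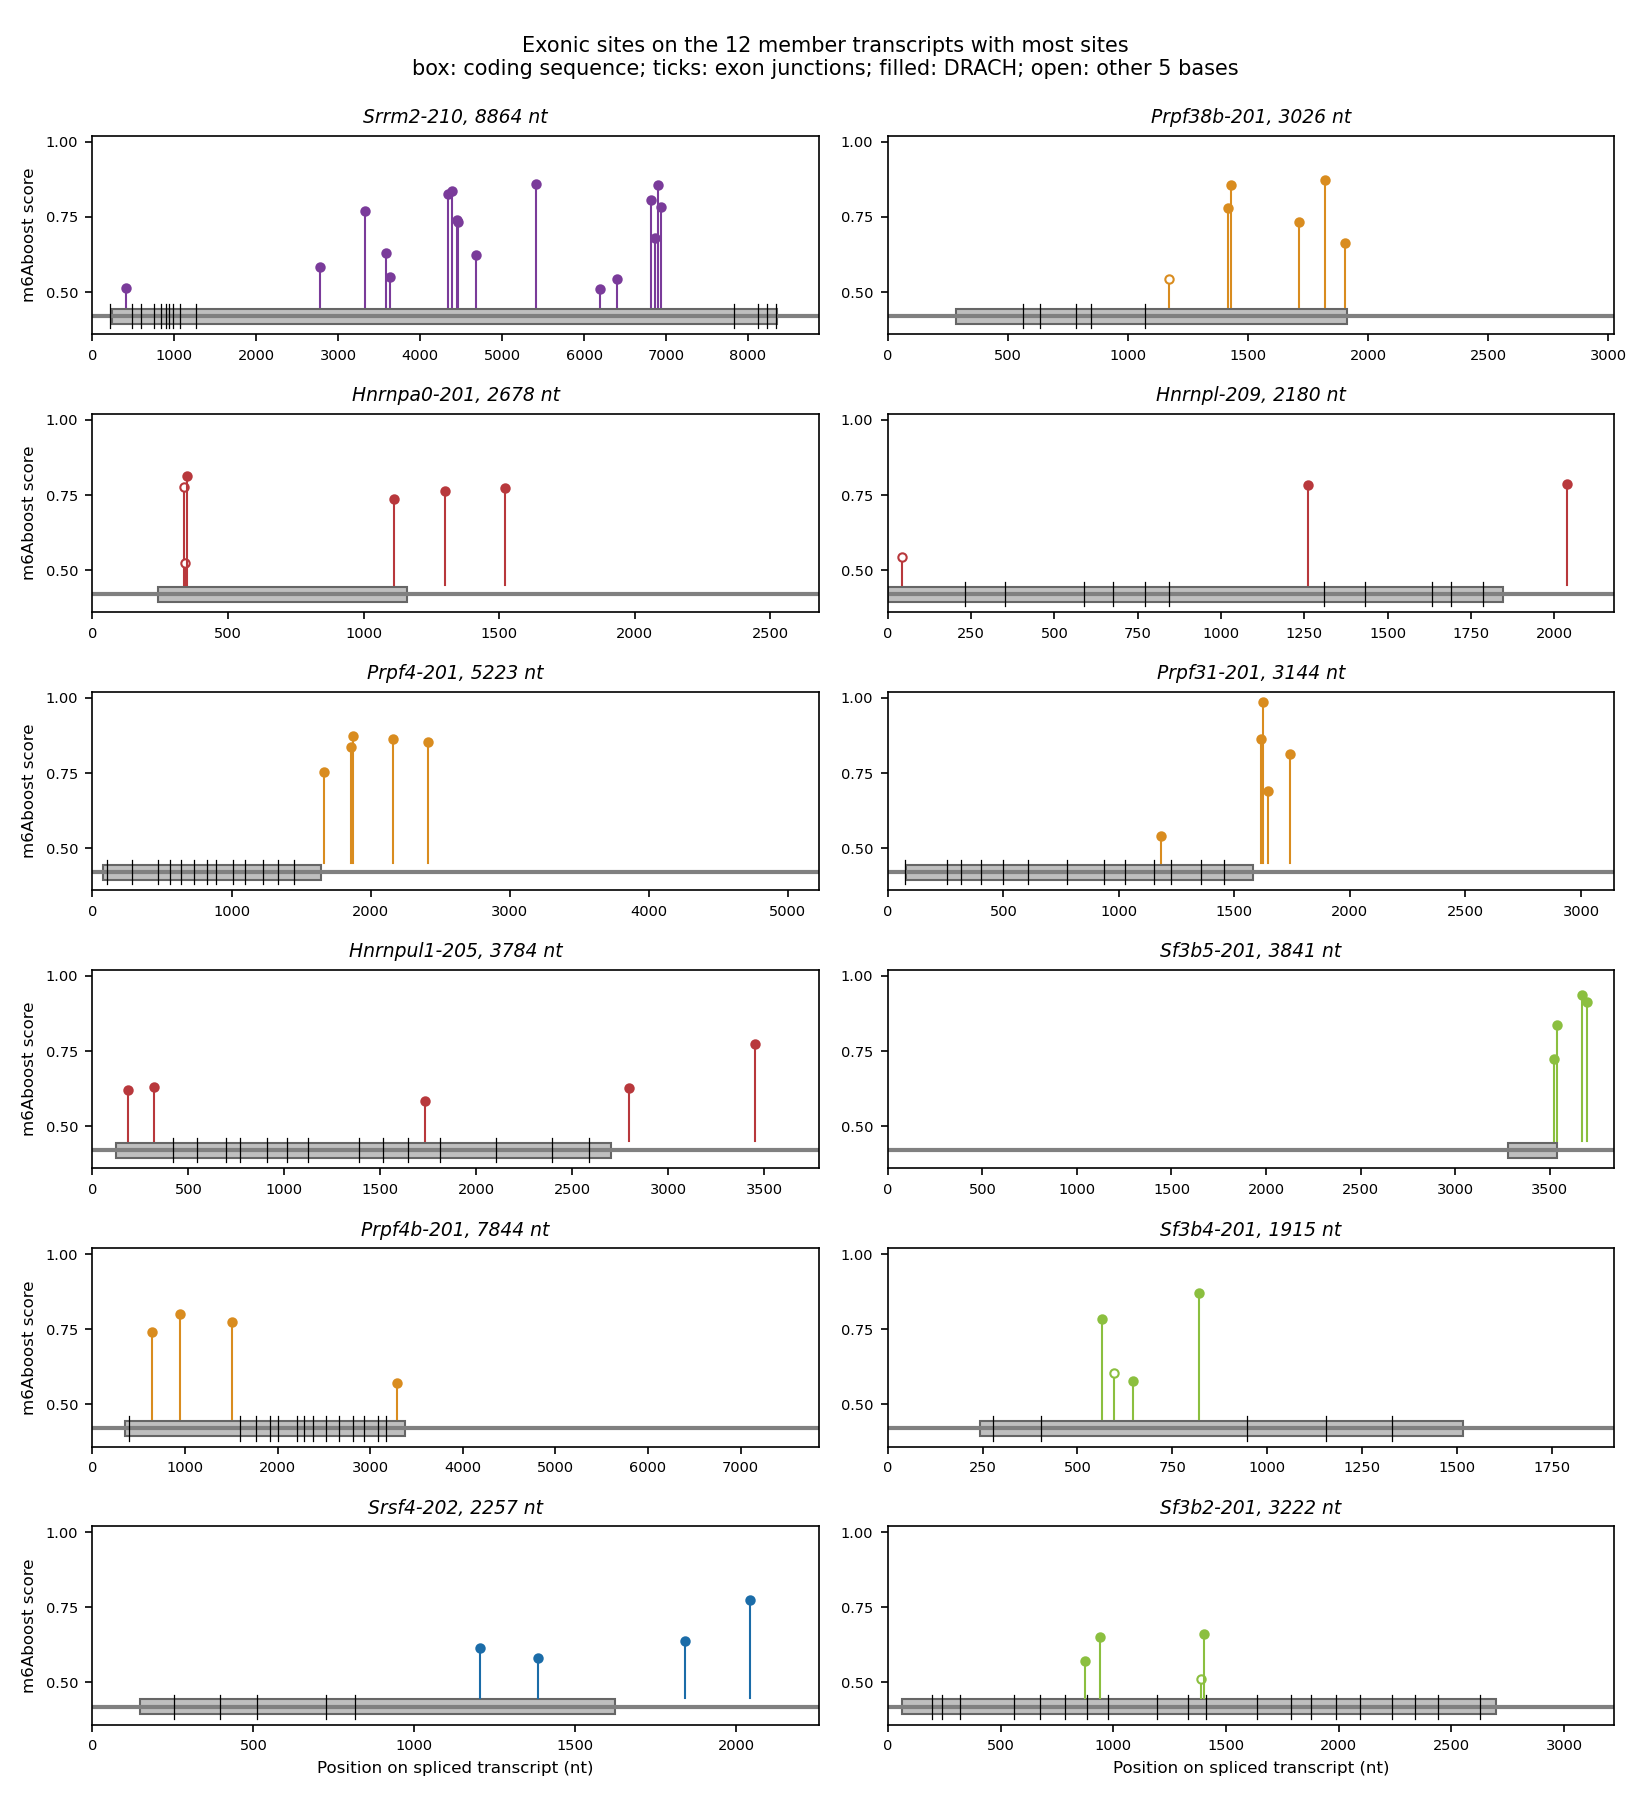
Exonic sites of the 12 member genes with most sites along the spliced transcript with the longest CDS (x axis, nt) against their m6Aboost score (y axis); grey boxes are coding sequence, black ticks exon junctions, filled circles DRACH and open circles other motifs. Srrm2 sites gather in 1 long exon, Prpf38b sites in the coding part of the last exon, and most sites of Prpf4, Prpf31 and Sf3b5 near or after the stop codon.

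The sites with the highest score in each of the 12 genes are printed to show the sequence on which the calls rest. Each line gives 21 nt of GRCm38 on the strand of the gene, with the 5 bases centred on the site in capitals.
Srrm2 chr17:23819270, plus strand, CDS: aacctcgtGGACTccaaagat
Prpf38b chr3:108904010, minus strand, CDS: gatagcaaGGACCagtcagac
Hnrnpa0 chr13:58128210, minus strand, CDS: acgctgacGGACTgcgtggtg
Hnrnpl chr7:28822098, plus strand, 3′ UTR: aaatgctgGAACTctggaggg
Prpf4 chr4:62423642, plus strand, 3′ UTR: tgttgtatAGACTcaacactt
Prpf31 chr7:3640968, plus strand, 3′ UTR: gacataaaGGACTggagcttc
Hnrnpul1 chr7:25721496, minus strand, 3′ UTR: tgactattGAACTtgaaacct
Sf3b5 chr10:13009013, plus strand, 3′ UTR: tcatggagAGACTgtccgggt
Prpf4b chr13:34883782, plus strand, CDS: cacagatcGGACAaaaggaaa
Sf3b4 chr3:96173956, plus strand, CDS: cagctgaaAGACTcctggcag
Srsf4 chr4:131901491, plus strand, 3′ UTR: ctgtttctGGACTtaccaacg
Sf3b2 chr19:5286586, minus strand, CDS: ctgtggcaGAACTcaagcagg
All 12 were DRACH motifs. Over all member sites the share at DRACH was 88.9% (96 of 108; 81.6 to 93.5%) beside 92.0% over all protein-coding genes. GGACT was the most frequent, with 19 sites (17.6%, 11.6 to 25.8%) beside 19.2%, followed by GAACT with 18 (16.7%, 10.8 to 24.8%) beside 13.1%, AGACT with 14 and GGACA with 13. No pair of sites from different members shared 11 or more bases around the adenosine.

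The 12 sites outside DRACH had a median score of 0.563, against 0.740 for the 96 sites at DRACH. Sequence is an input of the model, so this difference depends in part on the model itself. In 6 of them only the last base differed from the consensus, where a G followed the C; in 4 a T preceded the adenosine; and in 2 no C followed it. The 6 with the highest scores are shown in the same format.
Hnrnpa0 chr13:58128220, minus strand, CDS, score 0.776: ggccttcgGGACGctgacgga
Hnrnpm chr17:33650003, minus strand, CDS, score 0.746: ctgccattGAACGcatgggcc
Hnrnpul2 chr19:8820556, plus strand, CDS, score 0.678: ctgcttgaGGACGaagacgag
Srsf6 chr2:162934588, plus strand, CDS, score 0.643: cccaaagaGAACGgcaaagga
Sf3b4 chr3:96173732, plus strand, CDS, score 0.603: gctttacgATACTttcagcgc
Sf3a3 chr4:124732309, plus strand, 3′ UTR, score 0.582: ccccaaccAAATGttcttaaa
The sites of Hnrnpa0, Hnrnpm, Sf3b4 and Sf3a3 among these had another listed site within 100 nt, and that of Sf3a3 was 12 nt from its DRACH site.

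Neighbouring sites were less frequent than in the list at large. Of 102 exonic member sites, 42 had another site within 100 nt (41.2%, 32.1 to 50.9%), beside 60.0% over all protein-coding genes. Without Srrm2 the share was 37.6% (28.1 to 48.3%). These shares are counted over sites, so genes with many sites weigh more in them. They were not adjusted for the number of sites per gene, and the difference was not tested. These 42 sites made up 17 groups in 12 genes, and no group was longer than 132 nt. Besides Srrm2 with 3 groups, the genes were Srsf2, Sf3a3, Sf3b2, Sf3b4, Sf3b5, Prpf18, Prpf31, Prpf38b, Prpf4, Hnrnpa0 and Hnrnpm.

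Long internal exons held many of the CDS sites, mainly through Srrm2. Of the 47 CDS sites in internal exons, 27 were in exons of at least 400 nt (57.4%, 43.3 to 70.5%), beside 72.4% over all protein-coding genes; without Srrm2 the count was 11 of 30 (36.7%). An internal exon of this size is present in 6 members, namely Srrm1, Srrm2, Sf3b4, Prpf4b, Hnrnpl and Hnrnpm, and all but Srrm1 had sites. This share of 5 of 6 has an interval of 43.6 to 97.0%, which includes the 52.9% (27 of 51) of members without such an exon. Over all protein-coding genes, 32.5% of those with such an exon had a site and 21.2% of the others.

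At the end of the reading frame a site can share bases with the stop codon. The adenosines of Srsf11 at chr3:158012013 and Sf3b5 at chr10:13008879 lay 2 nt before the stop codon, so that the last base of the motif is the first base of TGA. Over all protein-coding genes with a site, 119 sites had this position, more than at any other distance from the stop codon, and 110 of the 314 DRACH adenosines there were listed (35.0%). The next position downstream where DRACH can occur is the last base of the stop codon, at which 55 of 842 (6.53%) were listed. A motif there has to start with the T of the stop codon, whereas a motif 2 nt before the stop codon has to end with it. These shares are thus over different motifs, and they were not compared for the same motif or tested. At 3 to 10 nt after the start of the stop codon the listed share ran from 15.6% to 22.4%. At 3 to 10 nt before it the share ran from 8.33% to 25.2%. Within codons, 35 of 71 member CDS sites were at the middle base (49.3%, 38.0 to 60.7%), beside 48.9% over all genes, and GAC was the most frequent codon with 24 sites.

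The genes without a site were not shorter than those with one. Their spliced transcripts had a median of 3116 nt and 62 DRACH adenosines, against 2980 nt and 54.5 in genes with a site. Hnrnpr, with 452 DRACH adenosines on 21452 nt, and Hnrnpu, with 144 on 7640 nt, had none listed. Several hnRNP and SR protein genes have processed pseudogenes, and the authors kept reads that map to a single place. Therefore the 31 nt that follow each DRACH adenosine were looked up in the whole genome. The share with another copy was 97.1% in Hnrnpa3, 92.7% in Hnrnpa1 and 89.5% in Hnrnpf, each with 1 site, and 63.5% in Srsf10, 62.1% in Hnrnpk and 61.1% in Srsf5, which had none. It was 60.6% in Sf3b4, with 4 sites, and 56.4% in Srsf3, with 1 site. In Hnrnpc and Hnrnph2, without a site, it was 44.4% and 38.1%. Over the members the median share was 3.65% in genes with a site and 3.85% in genes without. The upper quartiles lay further apart, at 10.3% in genes with a site and 19.0% in genes without. Of the 102 exonic sites, 8 were followed by such a repeated stretch, in Srsf3, Sf3b4 (2 sites), Prpf4, Hnrnpa1, Hnrnpa3, Hnrnpf and Hnrnpul1. The part of repeated sequence in the missing sites of Srsf10, Hnrnpk, Srsf5, Hnrnpc and Hnrnph2 was not tested.

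Other genes of the splicing machinery were examined as lists named by function. Of 136 such genes, 70 had a site (51.5%), beside 23.1% of all protein-coding genes, with 279 sites in all. The list of splicing helicases stood at the upper end with 11 of 12 genes, among them Ddx42 and Ddx5 with 8 sites each and Dhx38 and Ddx17 with 7 each. The helicases Ddx23, with 7 sites, and Snrnp200 and Aqr, without a site, were counted in lists of other complexes. Sm and LSm core proteins, which form the rings of the snRNPs, stood at the lower end with 2 of 15 genes (13.3%). SR-related proteins and SR kinases had sites in 12 of 22 genes, with 21 in Son, like Srrm2 a scaffold of nuclear speckles, 17 in Scaf1, 15 in Scaf11 and 11 in Scaf8. Among U5 and tri-snRNP proteins 6 of 12 had sites, 15 of them in Txnl4a. The counts were 3 of 7 for the U1 snRNP, 8 of 16 for the 3′ splice site and U2, 11 of 19 for the Prp19 complex and catalytic core, and 17 of 33 for other regulators, of which Mbnl1 had 10 sites.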

How the data were processed

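The authors mapped miCLIP2 reads of 3 untreated RAW264.7 replicates to GRCm38 with STAR 2.7.3a and kept uniquely mapped reads. Duplicates were removed with UMI-tools 1.0.0, and peaks called per replicate and found in at least 2 of them were scored. The deposited value of each site is the m6Aboost score, which takes sequence, transcript region and signal as inputs. Motif and region shares, and scores compared by motif or region, therefore depend in part on the model. Depth per site is not known.

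Sites were read as 0-based starts, printed 1-based, and assigned to genes of GENCODE M21 on the same strand; the authors used M23 of the same build. Each site was placed on the transcript with the longest CDS. Distances are in spliced nt, counted from the first base of the stop codon. Values over all protein-coding genes count a site once per gene holding it, 20035 pairs. No test was run, as the list has no replicate values; shares carry 95% Wilson intervals. Placement was checked on simulated positions. Described site by site were the 12 members with most sites, and by position those with 1 site. 1 member gene, counted but not named, and 1 chosen marker, left out of the counts, are not reported here. Members and gene lists were chosen with earlier results of these data known. Python 3.11.15, NumPy 2.4.6, SciPy 1.17.1 and matplotlib 3.10.9 were used.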

Additional observations from a re-analysis of the deposited data

How the results depend on the processing

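At a minimum score of 0.7 there were 60 member sites, 1 site per member with a site as the median, and shares of 96.7% for DRACH, 41.7% for the 3′ UTR, 0% for introns, 40% for the 200 nt around the stop codon and 60% for the last exon. At a minimum of 0.9 there were 5 sites in 4 members, a median of 1, with 100% for DRACH, the 3′ UTR, the stop codon window and the last exon, and 0% for the CDS and introns. The DRACH share was 80.6% with RRACH and 0% with the start read as 1-based. The intron share was 0% when a site had to be intronic in every annotated transcript. By construction, the stop codon share was 19.6% with a window of 100 nt and 41.2% with 400 nt, and the share with a neighbour was 28.4% within 50 nt and 52.9% within 200 nt. The other 54 of 77 values stayed within the interval of the value reported, or for counts within 1.5 times of it. The results recomputed were the counts of member sites and of members with a site, the medians of sites per member and of score, and the shares for DRACH, GGACT, CDS, 3′ UTR, introns, stop codon, last exon and neighbours. Among these, the values that stayed include all those under other transcript choices, without sites in further genes, with sites within 5 nt collapsed, or without Srrm2, an alternative chosen after seeing the data, and the GGACT share under every alternative. Outside these results, the share of internal-exon CDS sites in exons of at least 400 nt fell from 57.4% to 36.7% without Srrm2, below its interval of 43.3 to 70.5%. Why the values moved with the score limit was not tested. No paired analysis was possible because there is 1 condition, and leaving out a replicate was not possible because the list is pooled over replicates. Without read counts, a missing site cannot be told from low coverage, and scores cannot be read as methylation levels.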
